A study of Mus musculus with 8 samples.

Results

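The genes described here encode the hemidesmosome and its ligand laminin-332, the adhesion complex that fixes basal keratinocytes to the basement membrane. The members were named by symbol and not by their values: Col17a1, Itga6, Itgb4, Itga3, Dst, Plec, Cd151, Lama3 and Lamb3. All 9 were found in both deposited tables, among 16902 gene symbols, and all 9 passed the filter on low values that left 14614 genes for testing. Each member was covered by at least 2032 reads in every library.

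In the hemidesmosome, integrin alpha6beta4 and the transmembrane collagen XVII reach from the basal cell to laminin-332, a cross-shaped trimer secreted by the same cell. Inside the cell, plectin and the epithelial form of dystonin (BPAG1e) tie these receptors to keratin filaments. Inherited loss of these proteins causes forms of epidermolysis bullosa, and autoantibodies to collagen XVII and BPAG1e occur in bullous pemphigoid. The complex is taken apart and rebuilt when keratinocytes migrate.

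RNA was measured in epidermis freed from the back skin of CD1 mice with dispase, an enzyme that cleaves the basement membrane zone. The study compared Ovol1-deficient with control mice, untreated or treated with IMQ. Ovol1 encodes a zinc finger transcription factor of epithelia, and IMQ (imiquimod) is a Toll-like receptor agonist used on mouse skin to produce psoriasis-like inflammation. There were 4 groups of 2 libraries, in each 1 from a female (replicate 1) and 1 from a male (replicate 2). Untreated controls were Ovol1 +/-, IMQ controls were Ovol1 +/+, and the knockouts of both treatments were labelled Ovol1 -/-. Controls of the 2 treatments thus had different Ovol1 genotypes. The labels used here give no age of the mice and no dose or duration of IMQ, and do not say whether a library held 1 animal or several. With 1 female and 1 male a group, every p-value below measures only the spread between these libraries.

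The libraries held 28.6 to 43.1 M reads counted in genes. Ovol1 itself was read at 14582 to 16629 normalised counts in untreated controls and 26601 to 27433 in the untreated libraries labelled knockout. Under IMQ it was read at 7635 to 9556 in controls and 13076 to 13457 in the libraries labelled knockout. The tables give 1 value per gene and no exon values, so the label was not checked at a deleted part, and these groups are called labelled knockouts throughout. Summed basal keratinocyte markers (5 besides the member Col17a1, all detected) stood at 11841 to 17628 CPM over the 8 libraries, CPM being reads scaled to a common library size.

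Levels can be set against each other only per length of transcript. On the scale of CPM per kilobase of merged exons, averaged over 8 libraries, Col17a1 stood at 367, with a range of 300.0 to 420.5. Itga6, the laminin-binding chain of the hemidesmosomal integrin, followed at 54.2 CPM per kilobase. The next 5 genes were Itga3 at 36.7, Plec at 33.3, Lamb3 at 32.7, Itgb4 at 31.7 and Cd151 at 30.2. Dst stood at 21.3 and Lama3 at 10.9 CPM per kilobase. The ranges of the 5 genes over the libraries overlapped. That of Itga6 (36.5 to 72.5) overlapped theirs except for Cd151, and that of Dst (7.49 to 38.5) overlapped all of these. The order from Itga6 to Dst is therefore not resolved by these ranges, except that Itga6 stood above Cd151. Compared within each library, Itga6 stood above Itga3, Itgb4 and Dst on this scale in all 8 libraries. The range of Lama3 (7.44 to 16.3) overlapped that of Dst only. The value of Dst depends on the length used. Its merged exons span 41.2 kb because the gene also encodes much longer neuronal and muscle forms, and by the 8.79 kb of the single annotated transcript Dst-213 it came to 100.0 CPM per kilobase.

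**Figure D1:**
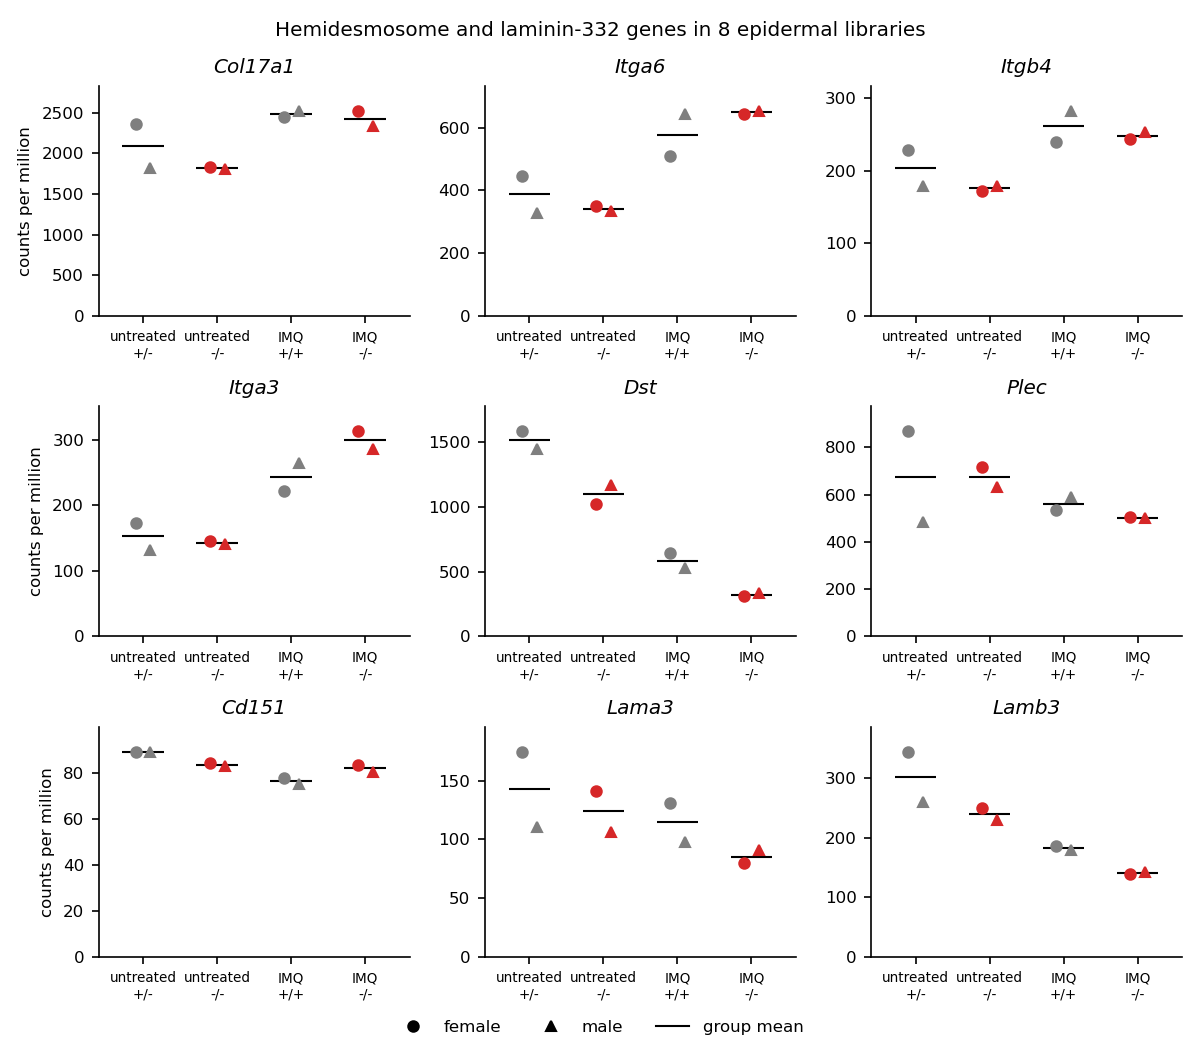
CPM in each of the 8 libraries for the 9 members, by group, with females and males marked and a line at each group's mean (linear axis from 0). Dst is lower in all 4 IMQ libraries than in any untreated library, and Itga6, Itgb4 and Itga3 are higher.

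Under IMQ the members did not move as 1 group. Itga6, Itgb4 and Itga3 were higher in all 4 IMQ libraries than in any of the 4 untreated ones, and Dst and Lamb3 were lower in all 4. Col17a1, Plec, Cd151 and Lama3 overlapped between the treatments when the genotypes were pooled. Separation of all 4 from all 4 libraries was common, being seen upward in 27.1% and downward in 23.7% of the genes tested. The 3 and 2 members of 9 are thus near the background. Within a genotype, Col17a1 was higher under IMQ without overlap in both, against 35.3% of genes in controls and 39.9% in labelled knockouts. Cd151 was lower without overlap in controls only (32.3% of genes), and Plec and Lama3 in labelled knockouts only (40.1%). The treatments were deposited in tables scaled apart and their controls differ in genotype, so these are descriptions on TMM-scaled CPM without a test. In bulk epidermis, fewer cells of a type and less RNA per cell cannot be told apart.

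Itga6 read 444 and 329 CPM in the female and male untreated controls, 351 and 333 in the untreated labelled knockouts, 511 and 645 in the IMQ controls, and 643 and 654 in the IMQ labelled knockouts. The lowest IMQ library was above the highest untreated one. The difference of group means was 0.59 on the log2 scale in controls and 0.92 in labelled knockouts, against medians over all genes of 0.02 and -0.01. Itga3, which pairs with integrin beta1 as the laminin receptor of focal adhesions, read 173 and 132, then 145 and 141 CPM untreated, and 222 and 265, then 313 and 286 CPM under IMQ, in the same order of libraries. Its log2 differences were 0.68 in controls and 1.06 in labelled knockouts, the highest among the members. Itgb4, the signalling chain of the hemidesmosomal integrin, was higher by 0.36 and 0.50, and Col17a1 by 0.26 and 0.42. For Col17a1 the treatments did not overlap within either genotype. Its untreated female control, at 2368 CPM, lay within the range of the IMQ labelled knockouts, 2340 and 2518 CPM. Cd151, a tetraspanin that associates with laminin-binding integrins, stayed between 75.3 and 89.2 CPM in all 8 libraries, with log2 differences of -0.22 and -0.03.

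Dst read 1583 and 1445 CPM in the female and male untreated controls and 1020 and 1170 CPM in the untreated labelled knockouts. Under IMQ it read 641 and 525 CPM in the controls and 308 and 335 CPM in the labelled knockouts. The 4 groups thus formed 4 steps that did not overlap, with untreated controls at the top and IMQ labelled knockouts at the bottom. The share of all genes that form such steps was not counted. The group means were 1514 ± 97.9, 1095 ± 106, 583 ± 82.1 and 322 ± 19.1 CPM (SD, n = 2 each). Dst was 2.61-fold lower under IMQ in controls and 3.40-fold lower in labelled knockouts by the geometric means, log2 differences of -1.38 and -1.76. A share of 2.81% of all genes were as low or lower in controls, and 3.28% in labelled knockouts. The other plaque gene, Plec, whose product links keratin to integrin beta4, overlapped between treatments in controls, with 869 and 483 CPM untreated and 534 and 589 CPM under IMQ. In labelled knockouts Plec read 719 and 633 CPM untreated and 505 and 499 CPM under IMQ.

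Of the laminin-332 chains, Lamb3 read 344 and 260 CPM in untreated controls, 250 and 230 CPM in untreated labelled knockouts, 185 and 180 CPM in IMQ controls, and 139 and 143 CPM in IMQ labelled knockouts. Like Dst, it formed 4 steps in the same order, a pattern that was not counted over all genes. The male untreated control, at 260 CPM, lay close to the female untreated labelled knockout, at 250 CPM. It was 1.63-fold lower under IMQ in controls and 1.69-fold lower in labelled knockouts. Lama3, which encodes the chain bound by the integrins, read 175 and 111, then 141 and 107 CPM untreated, and 131 and 98.1, then 80.0 and 90.7 CPM under IMQ. The treatments overlapped for Lama3 in controls and were apart in labelled knockouts. The gene of the third chain is not analysed here.

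**Figure D2:**
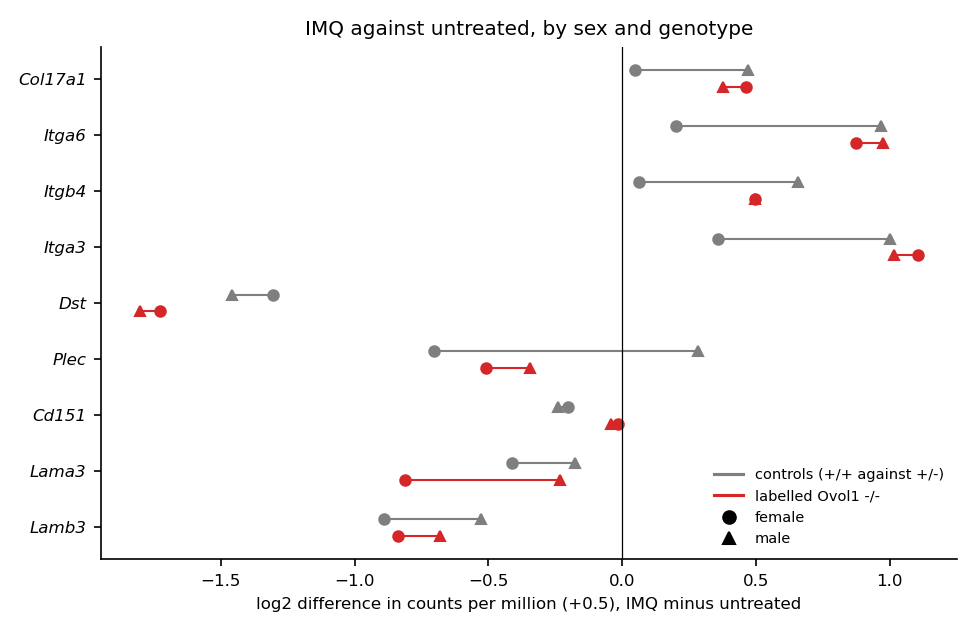
Log2 difference in CPM, IMQ minus untreated, for each member in controls and in labelled knockouts, with the female and male pairs as points joined by a line. Dst, Lamb3, Lama3 and Cd151 lie below 0 in every pair, and Col17a1, Itga6, Itgb4 and Itga3 lie above 0 in every pair.

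Single controls weighed on these differences, the untreated female control among them. It was the highest of the 4 untreated libraries for 9 of 9 members, against 27.5% of all genes, and its sum of the 5 basal markers that are not members was also the highest of the 8 libraries, at 17628 CPM. The part of that basal marker level in the members' values was not tested. Without it, the IMQ differences in controls were 0.42 for Col17a1, 0.77 for Itga6, 0.51 for Itgb4, 0.84 for Itga3, -1.34 for Dst and -0.53 for Lamb3. Those of Plec and Lama3 turned from -0.21 and -0.29 to 0.19 and 0.01. The untreated male control weighed the other way: without it the differences were 0.07 for Col17a1, 0.37 for Itga6, 0.18 for Itgb4, 0.49 for Itga3, -1.45 for Dst, -0.91 for Lamb3, -0.63 for Plec and -0.62 for Lama3. Without the IMQ male control Itgb4 was at 0.24 and Lama3 at -0.08, and without the IMQ female control Lama3 was at -0.52. In labelled knockouts, leaving out 1 library moved Lama3 between -0.72 and -0.32 and Cd151 between -0.09 and -0.000614.

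Ratios of reads between members of the same library do not depend on the scaling. Dst gave 0.669 and 0.791 reads per Col17a1 read in the female and male untreated controls, and 0.558 and 0.649 in the untreated labelled knockouts. Under IMQ the ratio was 0.262 and 0.208 in controls and 0.122 and 0.143 in labelled knockouts. All 4 IMQ libraries lay below all 4 untreated ones, 3.11-fold in controls and 4.54-fold in labelled knockouts by the means. Against Krt5, a keratin of basal cells outside the complex, Dst stood at 0.171 to 0.274 untreated and 0.0654 to 0.0980 under IMQ. Lamb3 per Col17a1 read was 0.127 to 0.145 untreated and 0.0554 to 0.0759 under IMQ. Itga6 per Itgb4 read, the pair of chains of 1 receptor, ran from 1.84 to 2.04 untreated and from 2.14 to 2.64 under IMQ, the labelled knockouts being highest at 2.64 and 2.58. Itgb4 per Col17a1 read overlapped between all groups. Plec per Itgb4 read ran from 2.70 to 4.17 untreated and from 1.97 to 2.23 under IMQ. Reads for Dst and Lamb3 were therefore fewer relative to collagen XVII under IMQ, but this was not particular to them. Plec, Lama3 and Cd151 reads per Col17a1 read were also lower in every IMQ library than in any untreated one. Reads for integrin beta4 and collagen XVII kept overlapping proportions. The share of all genes with such separated ratios was not counted.

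**Figure D3:**
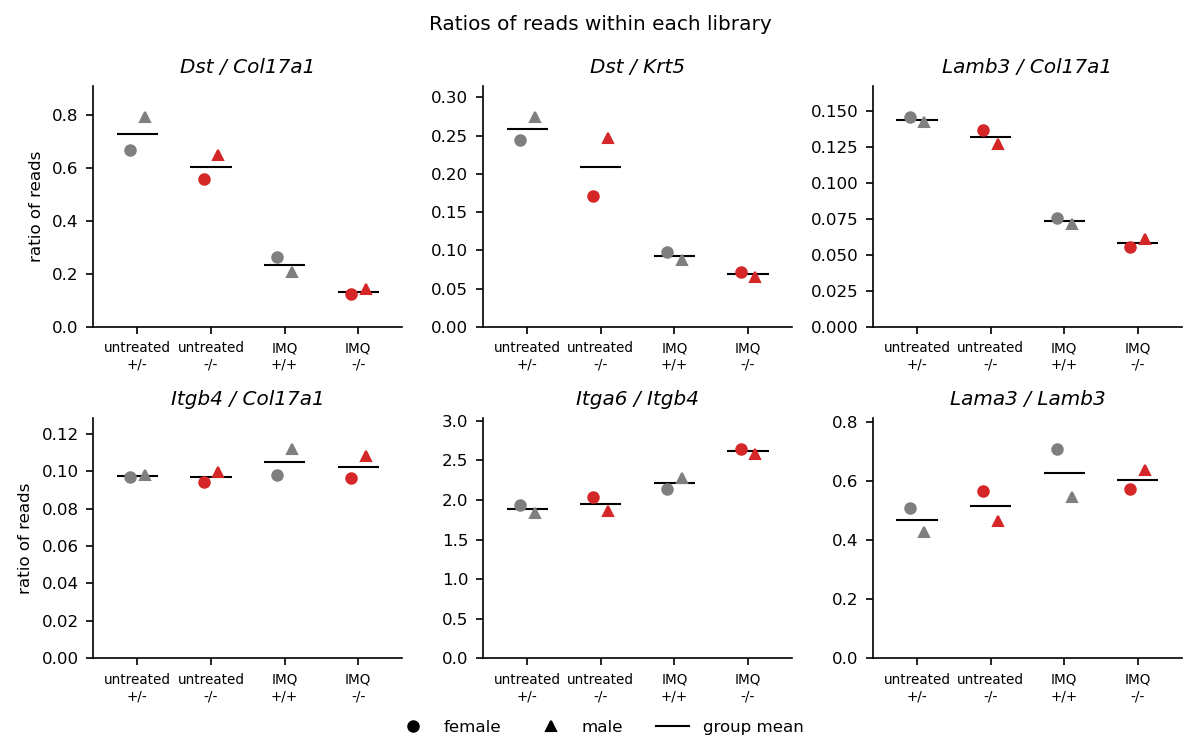
Reads of a member divided by reads of another gene in the same library, for 8 libraries in 4 groups. Dst per Col17a1 read goes from 0.558 to 0.791 untreated to 0.122 to 0.262 under IMQ, and Itgb4 per Col17a1 read overlaps between groups.

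The second comparison set labelled knockouts against controls under IMQ. Dst was the member with the clearest difference, lower in both labelled knockouts than in both controls. Lamb3, Lama3 and Plec were also lower without overlap, so that 4 members were, against 26.4% of genes. Itga3 and Cd151, 2 members, were higher without overlap, against 26.6% of genes. By limma with Benjamini-Hochberg adjustment over 14614 genes, 0 of 9 members passed an adjusted p of 0.05, against 0.438% of all genes. At an unadjusted p under 0.05 there were 2 members, Dst and Lamb3, both lower, against 11.9% of genes lower and 22.0% in either direction. Groups did not overlap for 6 of 9 members, against 53.0% of genes, which is near the background. edgeR's quasi-likelihood test called 0 members, against 0.205% of genes, and DESeq2 called 1, Dst, against 8.5% of genes, which is near the background. With sex as a replicate block limma also called 1, Dst, against 2.45% of genes.

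Normalised counts of Dst under IMQ were 19550 in the female control, 16172 in the male control, 9514 in the female labelled knockout and 10216 in the male one. Both knockout values were below the lower control, by 1.04 on the log2 scale between the females and by 0.66 between the males. The fitted log2 difference was -0.85 ± 0.15 (SE; 95% interval -1.20 to -0.50), with an adjusted p of 0.0657 by limma. With sex as a replicate block the adjusted p was 0.0405 by limma and 0.0493 by edgeR, and by DESeq2 without the block it was 8.39e-05. Over all alternatives the adjusted p ran from 8.39e-05 to 0.304, so the call depends on the test. Dst was lower in every alternative run, and leaving out 1 library moved the difference between -0.99 and -0.71. In size, 8.50% of genes with a known length were as low as Dst or lower in this comparison. Among the 2466 genes with merged exons of 8 kb or more the median was -0.04.

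The IMQ female control stood apart in markers of other tissues. Its summed striated muscle markers were 105 CPM against 6.05 to 19.8 in the other 7 libraries, its endothelial markers 18.4 against at most 2.96, and its melanocyte markers 81.9 against at most 26.3. Dst and Plec are also expressed in muscle and nerve, and the part of these cells in their values was not tested. Without that library Dst was at -0.71 (adjusted p = 0.207, limma) and Lamb3 at -0.36. The sum of the dermal fibroblast markers (8 of 8 in the tables) was higher in the male of every group, at 478 to 2593 CPM against 73.1 to 255 in the females. Not every marker followed the sum: Col6a1 read 42.2 CPM in the female and 19.6 CPM in the male untreated control.

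Lamb3 read 5659 and 5546 normalised counts in the IMQ controls and 4306 and 4353 in the labelled knockouts. These pairs did not overlap and agreed closely within each group. The log2 difference was -0.37 ± 0.15 (SE; 95% interval -0.72 to -0.02; adjusted p = 0.208, limma), and it did not pass. Lama3 read 4005 and 3022 in controls against 2469 and 2764 in labelled knockouts, a difference of -0.41 ± 0.25 (adjusted p = 0.360, limma). The Lama3 controls differed from each other by more than the lower one differed from the labelled knockouts. Itga3 read 6760 and 8159 in controls and 9672 and 8725 in labelled knockouts, at 0.31 ± 0.16 (95% interval -0.07 to 0.69; adjusted p = 0.309, limma). For the other receptor genes the intervals spanned 0. The log2 difference was 0.18 for Itga6 (-0.24 to 0.60), -0.07 for Itgb4 (-0.42 to 0.29), -0.03 for Col17a1 (-0.41 to 0.35) and 0.10 for Cd151 (-0.13 to 0.33). Plec was at -0.16, with a wide interval of -0.75 to 0.43.

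**Figure D4:**
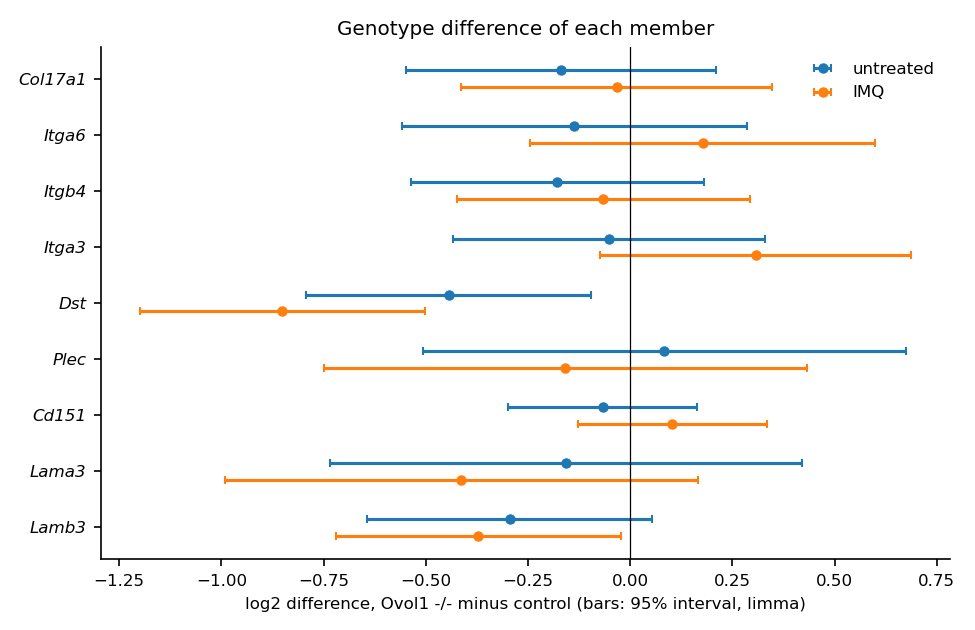
Log2 difference, labelled knockout minus control, for each member in untreated epidermis and under IMQ, with limma's 95% intervals. The interval of Dst lies below 0 in both, and that of Lamb3 under IMQ only; no member passed the adjusted threshold by limma.

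In untreated epidermis Dst was the only member whose 95% interval for labelled knockout minus control did not span 0. Other intervals were wide, at -0.51 to 0.67 for Plec and -0.74 to 0.42 for Lama3 on the log2 scale. No member passed by limma (0 of 9), where 0.0% of all genes did, and 0 members were called by edgeR (0.0% of genes) or DESeq2 (0.609% of genes). At an unadjusted p under 0.05 there was 1 member, Dst, against 4.46% of genes. The labelled knockouts were lower without overlap for 3 members, Dst, Cd151 and Lamb3, against 16.4% of genes. Normalised counts of Dst were 59115 in the female control, 53722 in the male control, 38603 in the female labelled knockout and 44466 in the male one. The groups were apart, and the difference was -0.44 ± 0.15 (SE; 95% interval -0.79 to -0.10; adjusted p = 0.921, limma). It was -0.61 between the females and -0.27 between the males. Lamb3 read 12855 and 9651 in controls and 9449 and 8725 in labelled knockouts, at -0.29 (95% interval -0.64 to 0.05). Dst and Lamb3 were the 2 members lower in labelled knockouts without overlap in both tables, which have no library in common, against 5.84% of genes.

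Differences were negative for 8 of 9 members in untreated epidermis, against 50.5% of genes, with Plec at 0.08. The female pair carried this: the median over the members was -0.32 between the females and 0.01 between the males. The untreated female control, the highest library for every member, read 88395 normalised counts of Col17a1 against 67884 to 69169 in the other 3. It read 16585 of Itga6 against 12246 to 13274, and 8548 of Itgb4 against 6515 to 6818. Without it, Col17a1 was at 0.02, Itga6 at 0.08, Itgb4 at 0.00252, Itga3 at 0.14 and Lama3 at 0.17, all turned from negative to positive, and Plec was at 0.51. Dst stayed at -0.37 and Lamb3 moved to -0.09. The shared negative sign thus rested on 1 library, except for Dst, Lamb3 and Cd151, the last at -0.06 without it.

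The genotype differences under IMQ and in untreated epidermis were then set against each other. Their controls were Ovol1 +/+ and +/-, so treatment and control genotype cannot be told apart in this comparison. For 0 of 9 members did the difference pass by limma, edgeR or DESeq2, against 0.0% of all genes by limma and edgeR and 0.677% by DESeq2. At an unadjusted p under 0.05 there were also 0 members, against 10.1% of genes. For Dst the log2 difference under IMQ was further from 0 by -0.41, with a 95% interval of -0.90 to 0.09 (adjusted p = 0.527, limma). A larger Dst difference under IMQ than in untreated epidermis was therefore not shown. The values for Itga3 and Itga6 were 0.36 and 0.31, with intervals of -0.18 to 0.90 and -0.28 to 0.91.

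RefSeq promoter windows (GRCm38.p6) were matched for 5 of the 9 members, Col17a1, Itga3, Dst, Cd151 and Lamb3, with 9 start sites in all. The 250 bases before the start are shown for Dst and Lamb3, the members lower in labelled knockouts without overlap in both tables, and for Col17a1 as the member with the highest level per length. Each is on the gene's own strand, plus for Dst and Lamb3 and minus for Col17a1. For Lamb3 the window of 1 of 2 RefSeq starts is shown and the other, chr1:193301993-193302242, is left out. Capitals mark CCGTTA, the core of the sequence that Ovol proteins bind.
Dst, upstream start, chr1:34011345-34011594: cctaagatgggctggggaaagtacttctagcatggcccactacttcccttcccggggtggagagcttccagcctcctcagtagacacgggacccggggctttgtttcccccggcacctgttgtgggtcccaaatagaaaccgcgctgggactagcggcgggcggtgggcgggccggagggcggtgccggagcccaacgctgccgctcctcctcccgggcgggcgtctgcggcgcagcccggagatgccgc
Dst, downstream start, chr1:34160010-34160259: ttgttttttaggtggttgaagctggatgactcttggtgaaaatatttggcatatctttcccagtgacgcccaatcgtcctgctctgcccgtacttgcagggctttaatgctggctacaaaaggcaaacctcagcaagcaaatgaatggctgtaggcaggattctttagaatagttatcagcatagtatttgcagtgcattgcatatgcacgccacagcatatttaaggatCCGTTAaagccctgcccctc
Lamb3, chr1:193301744-193301993: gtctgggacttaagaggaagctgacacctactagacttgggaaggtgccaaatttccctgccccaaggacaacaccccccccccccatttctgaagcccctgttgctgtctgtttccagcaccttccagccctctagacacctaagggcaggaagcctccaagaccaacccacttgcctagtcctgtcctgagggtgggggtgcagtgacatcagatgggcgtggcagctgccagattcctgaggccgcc
Col17a1, chr19:47692043-47692292: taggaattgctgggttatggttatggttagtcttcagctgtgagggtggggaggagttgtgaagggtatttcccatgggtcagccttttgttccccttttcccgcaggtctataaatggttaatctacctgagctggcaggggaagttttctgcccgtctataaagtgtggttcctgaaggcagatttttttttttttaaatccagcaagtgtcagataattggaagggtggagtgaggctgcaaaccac
The letters CCGTTA, searched on both strands, occurred in 1 of the 9 windows, that of the downstream Dst start at position 34160260, from 20 to 15 bases before it. They occurred in 712 of 32817 promoters of this length, a share of 2.17%. The letters TGANTCA, the AP-1 motif, occurred in 0 of 9 windows and in 6.75% of all promoters. These matches describe the letters only. The distance is counted from the RefSeq start, whereas the nearest GENCODE transcripts, Dst-213, Dst-215 and Dst-217, start further downstream, at 34160330. The Dst value sums 14 protein-coding transcripts annotated in GENCODE, so reads from the downstream start cannot be told apart from those of the other forms.

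In the annotation of mm10, Dst lies at chr1:33908225-34308661 on the plus strand and Lamb3 at chr1:193207699-193343878 on the plus strand. Col17a1 lies at chr19:47646344-47692094 on the minus strand, and Itga6 at chr2:71745616-71858416 on the plus strand. Itgb4 lies at chr11:115974709-116008412 on the plus strand and Itga3 at chr11:95044474-95076801 on the minus strand. Plec lies at chr15:76170974-76232574 on the minus strand and Cd151 at chr7:141467392-141471473 on the plus strand. Antisense genes cover 7.66% of the merged exons of Itgb4 and 7.04% of those of Cd151, and no source used here states the strand setting of the counting. The gene antisense to Cd151 read at most 27.8 normalised counts in any library. Parp10, antisense to Plec, covers 1.13% of its merged exons and read at most 1609 normalised counts. Antisense genes also cover 2.52% and 1.11% of the merged exons of Dst and 1.83% of those of Lama3. Those opposite Itgb4, Dst and Lama3 have no deposited values.

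Of 19 basement membrane and anchoring genes tested under IMQ, 0 passed by limma. The difference was negative for 16 of them, against 51.2% of all genes, with a median of -0.43 on the log2 scale against -0.01. Markers of some other cell types were all negative in the same contrast: 8 of 8 dermal fibroblast markers (median -1.26), 6 of 6 endothelial markers (-1.79) and 7 of 7 striated muscle markers (-1.35). Other lists were mixed: 4 of 5 melanocyte markers were negative (-0.62) and 3 of 5 Schwann and nerve markers (-0.18). So were 2 of 4 hair follicle markers (-0.14) and 2 of 5 leukocyte markers (median 0.04). Their part in the values of the list was not tested. Col7a1, which forms the anchoring fibrils below the hemidesmosome, was at -0.52 ± 0.15 (adjusted p = 0.128, limma), and Lama5, a laminin chain of the same membrane, at -0.43. The collagen IV chains Col4a2 and Col4a5 were at -0.69 and -0.76. Col7a1 was also lower under IMQ in both genotypes, at 248 and 186, then 189 and 180 CPM untreated, and 96.4 and 95.8, then 70.7 and 63.0 CPM under IMQ. In untreated epidermis the list's median was -0.04 and 0 genes passed.

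Of the 5 plakins other than Dst and Plec, cytoskeletal linker proteins like them, 0 passed by limma under IMQ, and the median was -0.54. Macf1 and Evpl (envoplakin) were near 0, at -0.07 and -0.06. Eppk1 (epiplakin) was at -1.12 (adjusted p = 0.0730, limma), Ppl (periplakin) at -0.70 and Dsp (desmoplakin) at -0.54, each on the log2 scale. Other integrins and focal adhesion genes had a median of -0.02 over 17 tested, and 0 passed. Among them Itgb1, the partner of Itga3, was at 0.58, Itga2 at 0.49 and Itgb5 at -1.17 (adjusted p = 0.0714, limma, and 0.0493 with the sex block). Itga9 was at -1.14 under IMQ and at 3.68 in untreated epidermis (adjusted p = 0.0634, limma), but its level was very low. It read 0.12 and 0.17 CPM in untreated controls and 1.97 and 2.25 CPM in untreated labelled knockouts. Under IMQ it read 1.26 and 0.82 CPM in controls and 0.42 and 0.47 CPM in labelled knockouts. Of 13 genes for proteases that act on the matrix or collagen XVII and for protease inhibitors (Timp1, Timp2 and Timp3), 0 passed, with a median of 0.15. Mmp3 and Mmp10 (stromelysins) were at 3.01 and 2.60, but their IMQ controls differed widely, at 7.76 and 40.7 CPM of Mmp3 (107 and 192 in labelled knockouts) and 0.12 and 0.85 CPM of Mmp10 (1.93 and 2.5). The inhibitor Timp1 was at 1.38 and Mmp9, a gelatinase that also cleaves collagen XVII, at -1.19. Adam17, which sheds the collagen XVII ectodomain and was singled out after its value was seen, was at 0.52 (adjusted p = 0.0818, limma). Of 12 tetraspanins other than Cd151, 1 passed: Tspan3 rose by 1.75 on the log2 scale (adjusted p = 0.0390, limma). Cd63 was at 0.53 under IMQ, and Tspan6 was at -0.59 under IMQ and -0.55 in untreated epidermis.

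Among the 6 basal keratinocyte markers, which include Col17a1, 0 passed, with a median of -0.15 under IMQ, and Krt15, a keratin of resting basal cells, was at -0.57. Krt15 read 4225 and 4668, then 3346 and 3693 CPM untreated, and 1388 and 1055, then 704 and 939 CPM under IMQ. Krt15 was lower in all 4 IMQ libraries, Krt5 and Krt14 overlapped between treatments, and Trp63 and Cdh3 were higher in all 4, by 0.87 and 0.74 in controls and 1.04 and 1.16 in labelled knockouts (log2). The part of a shift among basal cells in the Dst values was not tested. The 7 suprabasal markers had a median of -0.34, with Krt10 at -0.63 and Flg2 (filaggrin 2) at -1.72 (adjusted p = 0.0818, limma, and 0.0123 with the sex block). In untreated epidermis Ivl (involucrin) was at -0.58 (adjusted p = 0.945, limma).

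**Figure D5:**
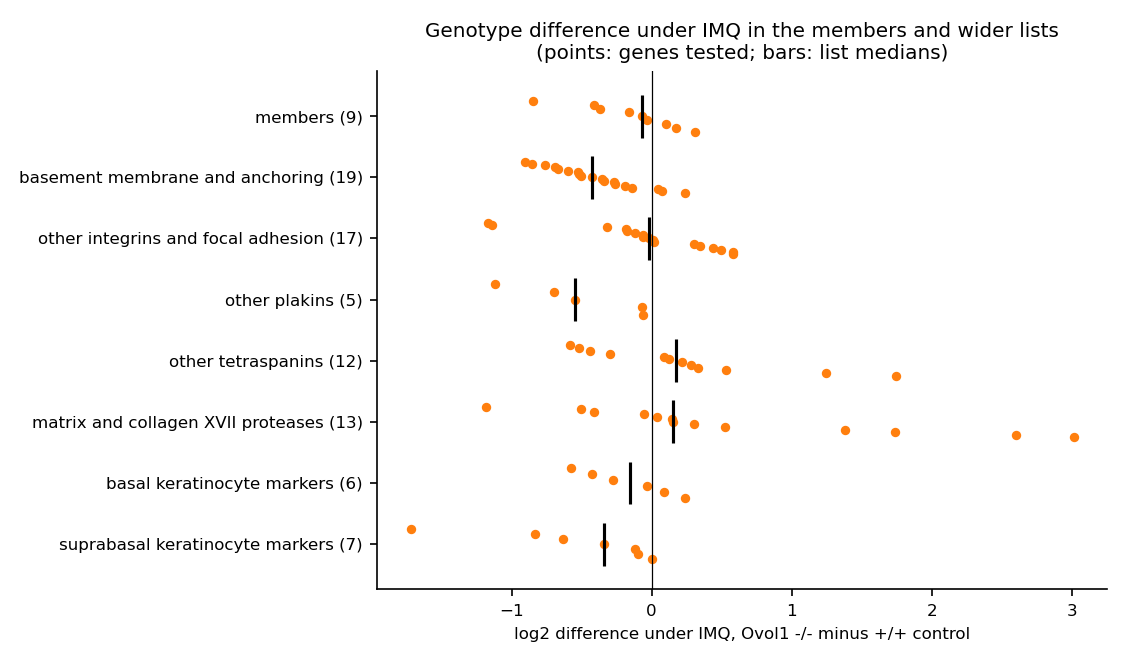
Log2 difference, labelled knockout minus control under IMQ, for each gene tested of the members and of 7 lists around them, with a bar at each list's median. The medians of the basement membrane genes (-0.43) and other plakins (-0.54) lie below that of all genes (-0.01, not drawn).

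The genes whose log2 CPM over the 8 libraries correlated best with the mean profile of the members were Zxdc (Pearson's r = 0.896), Tacc2 (0.892) and Ripk4 (0.883), out of 6775 candidates. That mean profile stood out in 1 library, the untreated female control, at 0.87 in standardised units against -0.37 to 0.12 in the others. The part of this library in the correlations was not tested. The libraries fall into treatment groups and share their scaling. The members themselves correlated with their mean profile at only 0.117 to 0.688, so the 9 genes do not share 1 pattern.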

How the data were processed

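The 8 libraries were stranded, polyadenylated RNA libraries read as paired ends. Per the submitters' processing notes, reads went through Trimmomatic 0.35 and STAR 2.5.2a against mm10, and DESeq2 1.24.0 ran under R 3.6.1. No source used here names the counter, its strand setting or the gene annotation. The authors deposited a signal: counts of reads scaled by a size factor for each library, with untreated and IMQ libraries in separate tables that were scaled apart. Every value was a whole number of reads times its library's step (tolerance 0.001 read), which gave the reads back.

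Genotype differences were fitted on log2(deposited value + 1), for 14614 genes with a mean of at least 10 in either table, with 4 group means over 8 libraries (4 residual degrees of freedom), a trended and robust variance, and Benjamini-Hochberg adjustment at 0.05 (limma 3.58.1, R 4.3.3). Fold changes are on this log2(value + 1) scale. IMQ was set against untreated as log2(CPM + 0.5) of recovered reads, TMM-scaled, without a test. edgeR 4.0.16 and DESeq2 1.42.0 were run on the recovered reads as alternatives. The male minus female differences of the genes correlated between groups at r = 0.145 to 0.463, or 0.0744 to 0.394 without X and Y. Sex, which the labels give, was used as a replicate block in an alternative. Lengths and positions came from GENCODE and promoters from RefSeq. The scripts were tested on simulated data.

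The members and the lists around them were chosen with earlier results of these data known. All members are named. From each list, up to 4 genes per contrast are named that were furthest from 0 among those at an unadjusted p under 0.05. Markers of cells other than keratinocytes are given as lists only. Genes of at least 20 CPM whose profile was most like the members' mean are named too. Adam17, Macf1, Evpl, Krt5, Krt14, Trp63 and Cdh3 are named outside this rule.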

Additional observations from a re-analysis of the deposited data

How the results depend on the processing

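With 2 libraries a group, the number of genes passing varied with the test (edgeR with the replicate block was added after seeing the data). In untreated epidermis 0 genes passed by limma, 5 with a pseudocount of 5, 8 with sex as a replicate block, 89 by DESeq2, 6 by edgeR with the block, 8 with each table fitted alone, and 0 to 2 with 1 library left out. Under IMQ 64 passed by limma, 358 with the replicate block, 30 by edgeR, 1242 by DESeq2, 282 by edgeR with the block, 0 with plain moderation, 0 with each table alone, and 0 to 299 with 1 library left out (299 without the IMQ male labelled knockout, 5 without the IMQ female control, 3 without the IMQ female labelled knockout, 0 without any 1 untreated library). For the difference between treatments 0 passed by limma and 99 by DESeq2. The cause was not tested.

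Among the members, Dst under IMQ passed with the replicate block (by limma and edgeR) and by DESeq2, and the block changed no other member's call. Small differences changed sign: Plec in untreated epidermis was at -0.00169 by edgeR, and Col17a1 under IMQ at 0.00208 by DESeq2. With 1 library left out, untreated differences ran from -0.36 to 0.0206 for Col17a1, -0.36 to 0.0817 for Itga6, -0.36 to 0.00252 for Itgb4, -0.25 to 0.14 for Itga3, -0.34 to 0.51 for Plec and -0.49 to 0.17 for Lama3. Under IMQ they ran from -0.10 to 0.0289 for Col17a1 and -0.19 to 0.0620 for Itgb4. The difference between treatments ran from -0.0541 to 0.33 for Col17a1, -0.0686 to 0.29 for Itgb4, -0.67 to 0.18 for Plec, -0.59 to 0.0754 for Lama3 and -0.28 to 0.13 for Lamb3. IMQ minus untreated in controls ran from -0.63 to 0.19 for Plec and -0.62 to 0.00584 for Lama3. Dst and Cd151 kept their signs with any 1 library left out. Scaling by total counts instead of TMM moved IMQ minus untreated in labelled knockouts, to 0.30 for Col17a1, 0.81 for Itga6, 0.38 for Itgb4, 0.95 for Itga3, -1.88 for Dst, -0.14 for Cd151 and -0.88 for Lamb3, and turned no sign.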
